A study of Mus musculus with 4 samples.

Results

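Angiopoietins, the Tie receptors they act on and the angiopoietin-like genes were followed in mouse lung. Of the 47729 genes in the count tables, 8 were taken by name: Angpt1, Angpt2, Tek, Tie1, Ptprb, Angptl1, Angptl2 and Angptl4. Gene expression was measured by sequencing of polyA RNA in 4 libraries, 2 labelled Normoxic and 2 labelled Sugen-Hypoxic, all of strain BL/6 and genotype Control (Rosa). Sugen is an inhibitor of VEGF receptors, and giving it with hypoxia is a rodent model of pulmonary hypertension. The series asks how mutations of KCNK3, a potassium channel gene, alter the response to hypoxia, and the libraries analysed here carry no such mutation per their labels. The titles of all 4 also carry the word MSX1, which the labels do not explain, and no age, dose or duration is given. Per the labels a library pools 2 or 3 mice (the replicate numbers are names given here in order of deposition): Normoxic replicate 1 holds 3 females, Normoxic replicate 2 holds 2 males with 1 female, and both Sugen-Hypoxic pools hold 2 males. Drug, hypoxia and sex of the pools cannot be told apart.

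Gene counts summed to between 57319562 and 67135829 per library. Levels are given as CPM, counts relative to 1000000 gene counts after scaling of library sizes by TMM factors (0.967 to 1.03), and as RPKM, the same per kilobase of exon. One label names lung as the tissue and another, on extraction, speaks of kidneys. Sftpc, the alveolar type 2 surfactant gene, stood at 11250 to 12410 CPM, and Umod, the main urinary protein of kidney, at 0 in 3 libraries and 0.124 CPM in the other. The X-inactivation RNA Xist was at 494 and 149 CPM in the Normoxic pools and at 0.505 and 0.512 CPM in the Sugen-Hypoxic pools, the order of the labelled shares of females. Nothing in the labels says that the pools came from separate experiments, so p-values measure only the spread between these pools.

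TEK (also called TIE2) and TIE1 are receptor tyrosine kinases of endothelial cells. ANGPT1, made largely by cells around vessels, activates TEK and quiets the endothelium, whereas ANGPT2, stored and released by endothelial cells, can antagonise it. TIE1 has no classical activating ligand of its own and modulates TEK, and PTPRB (VE-PTP) is the endothelial phosphatase that dephosphorylates TEK. The angiopoietin-like proteins share the fold but do not bind TEK or TIE1 as ligands, and ANGPTL4 is known above all as an inhibitor of lipoprotein lipase and as a target of hypoxia and fatty acid signalling.

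Sequence upstream of the start was at hand in RefSeq's promoter table (GRCm38.p6) for 4 of the 8 genes, Tek, Tie1, Angptl1 and Angptl2. Tek and Tie1 are shown as the receptors among these 4, and Angptl7, a related gene, because it had the largest change in the family. The change of Tie1 was not tested against that of Tek. Capitals mark the letters GGAA on either strand, the core read by ETS factors, a family with known roles in endothelial genes. The Tek stretch is the 250 bases before the start on the plus strand (GRCm38, chr4:94739039-94739288), that of Angptl7 the 250 before the start on the minus strand (chr4:148500463-148500712). For Tie1 the RefSeq start lies 212 bases inside the outermost GENCODE start, and only the 38 bases upstream of both are shown (minus strand, chr4:118490062-118490099).
Tek: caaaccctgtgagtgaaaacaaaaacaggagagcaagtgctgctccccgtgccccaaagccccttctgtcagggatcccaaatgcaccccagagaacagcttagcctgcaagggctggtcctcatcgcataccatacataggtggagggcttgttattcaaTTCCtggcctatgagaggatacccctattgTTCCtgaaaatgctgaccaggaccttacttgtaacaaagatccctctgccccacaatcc
Tie1: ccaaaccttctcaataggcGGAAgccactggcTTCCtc
Angptl7: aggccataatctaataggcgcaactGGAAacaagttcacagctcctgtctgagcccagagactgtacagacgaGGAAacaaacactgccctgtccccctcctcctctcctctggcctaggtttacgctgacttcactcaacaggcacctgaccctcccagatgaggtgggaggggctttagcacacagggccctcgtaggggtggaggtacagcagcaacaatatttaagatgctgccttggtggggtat
Over the whole RefSeq window of 300 bases, which runs 50 bases past the start, GGAA occurred 9 times for Tie1, 2 times for Tek and 5 times for Angptl7. Of the 9 for Tie1 only 2 lie upstream of both starts, so its count is not comparable with that of Tek. Of 32851 promoters, 96% held GGAA at least once. ACGTG and GCGTG, cores of hypoxia response elements, the latter also the core of the aryl hydrocarbon receptor's element, were not found in the windows of Tek, Tie1, Angptl1, Angptl2 or Angptl7. Of the other family genes with a window, GCGTG occurred 4 times for Angpt4 and 1 time for Angptl8. ACGTG and GCGTG occurred in 19.6% and 32.4% of all promoters. The FOXO motif GTAAACA, held by 3.6% of promoters, was likewise not found in these windows, and ACAAT, a SOX core held by 31%, occurred 2 times for Tek, 1 time for Angptl7 and not for Tie1.

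After Sugen and hypoxia, Tie1 was the 1 gene of the 8 that passed the test, and it was higher. Of the 7 that passed the expression filter, 1 rose, 0 fell and 6 did not pass, in edgeR's quasi-likelihood test with Benjamini-Hochberg adjustment at 0.05 over all genes. Among all 18783 genes tested, 5.51% passed as higher and 6.01% as lower, so a single call among 7 stands near that background. DESeq2 called 2 of the 7 higher and 0 lower, beside 1651 higher and 1603 lower of all 18783 genes. For limma-voom the numbers were 1 and 0, beside 1000 and 1156 of all genes. At an unadjusted p under 0.05 in edgeR's test the numbers were 3 higher and 0 lower. The share of all genes under that unadjusted p was not counted, so these and later unadjusted counts have no background beside them. The median log2 fold change of the 7 was 0.20, against -0.004 over all genes tested. Angptl1 was too low to be tested.

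**Figure D1:**
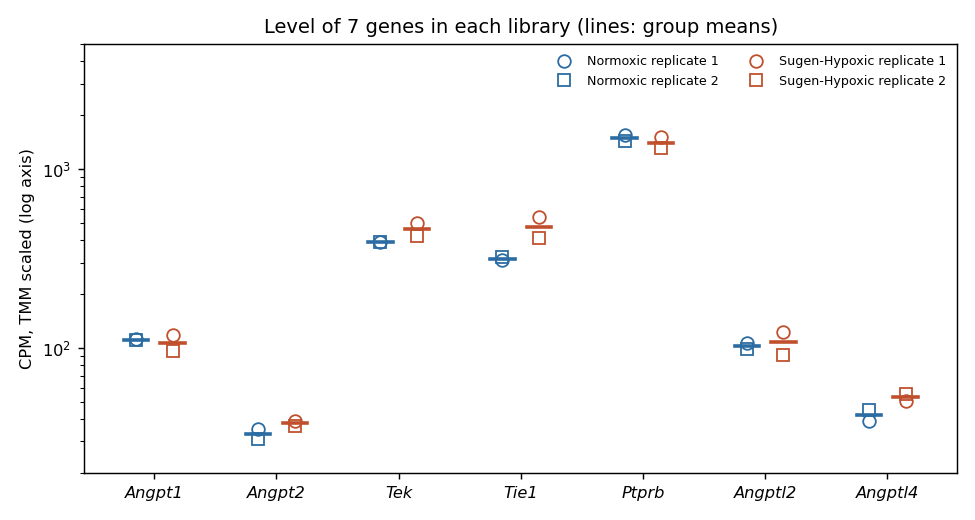
CPM (TMM scaled, log axis) of the 7 genes tested, by library, with circles for replicate 1, squares for replicate 2 and lines for group means. Both Sugen-Hypoxic libraries lie above both Normoxic ones for Angpt2, Tek, Tie1 and Angptl4, with the widest distance in Tie1 (309 and 321 against 538 and 413 CPM).

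Of the ligands, Angpt1 (ENSMUSG00000022309, GRCm38 chromosome 15, 42424723 to 42676977, minus strand) was at 113 and 110 CPM in the Normoxic and 118 and 96.0 CPM in the Sugen-Hypoxic libraries. The groups overlapped, and the second treated pool was the lowest of the 4. Its log2 fold change of -0.06 ± 0.10 (SE) had a 95% interval from -0.31 to 0.19 and adjusted p = 0.739 in edgeR's test. Without Sugen-Hypoxic replicate 1 the value was -0.21 and passed (adjusted p = 0.0164), and without Sugen-Hypoxic replicate 2 it was 0.08 (adjusted p = 0.373), so its direction rested on which treated pool was kept. A fit without a treated pool holds 1 treated library, assumed to vary like the Normoxic pair, and such fits called 5101 (without replicate 1) and 4777 (without replicate 2) of all genes.

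Angpt2 (ENSMUSG00000031465, chromosome 8, 18690263 to 18741562, minus strand) was at 35.1 and 31.1 CPM in Normoxic and 39.2 and 36.7 CPM in Sugen-Hypoxic libraries. The groups did not overlap, but the lower treated pool lay only just above the higher Normoxic pool. Groups that do not overlap were common here, 61.7% of all genes tested and 4 of these 7 (61.3% and 5 of 7 when scaled by library size alone). The log2 fold change of Angpt2 was 0.20 ± 0.08 (95% interval -0.01 to 0.41, adjusted p = 0.185), and it passed without Sugen-Hypoxic replicate 2 (0.25, adjusted p = 0.048). Changes of more than 1.33-fold in either direction lay outside its interval.

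The receptor Tek (ENSMUSG00000006386, chromosome 4, 94739289 to 94874976, plus strand) was at 393 and 390 CPM in Normoxic and 501 and 425 CPM in Sugen-Hypoxic libraries. Both treated values were above both Normoxic values, which lay within 0.01 of each other on the log2 scale, while the treated pools were 0.24 apart. The log2 fold change was 0.24 ± 0.09 (95% interval 0.01 to 0.48) and did not pass (adjusted p = 0.158). It was 0.12 without Sugen-Hypoxic replicate 1 (adjusted p = 0.172) and 0.36 without replicate 2, where it passed (adjusted p = 0.000218).

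Tie1 (ENSMUSG00000033191, chromosome 4, 118471191 to 118490061, minus strand) went from 309 and 321 CPM to 538 and 413 CPM, or from 315 ± 8.40 to 476 ± 88.6 CPM (SD, n = 2). Both treated pools stood above both Normoxic pools, and the treated pools were themselves 0.38 apart on the log2 scale against a median of 0.16 over all genes. The rise was 1.51-fold, a log2 fold change of 0.59 ± 0.13 (95% interval 0.27 to 0.92, adjusted p = 0.0444). Its size was larger than that of 79.8% of the genes tested, in either direction. The call was lost without Normoxic replicate 1 (0.57, adjusted p = 0.274) and without Normoxic replicate 2 (0.62, adjusted p = 0.246), fits in which the spread comes from the treated pair alone. Without a treated pool the size ran from 0.39 (replicate 1 left out) to 0.78 (replicate 2 left out). Both passed, with the spread taken from the Normoxic pair alone, whose Tie1 levels were 0.05 apart on the log2 scale, so these passes are no sign of stability. It was also lost with upper-quartile factors (0.54, adjusted p = 0.0543) and with the male share of each pool as a covariate (0.54, adjusted p = 0.637), which leaves 1 residual degree of freedom. The all-female and the mixed Normoxic pool differed by 0.05 on the log2 scale.

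Ptprb (ENSMUSG00000020154, chromosome 10, 116275523 to 116389535, plus strand), the phosphatase that acts on TEK, was at 1550 and 1431 CPM in Normoxic and 1506 and 1307 CPM in Sugen-Hypoxic libraries. The groups overlapped, although they did not when scaled by library size alone. The log2 fold change was -0.08 ± 0.10 (95% interval -0.34 to 0.18, adjusted p = 0.638) and turned to 0.02 without Sugen-Hypoxic replicate 2 and to 0.03 with the male share as a covariate.

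**Figure D2:**
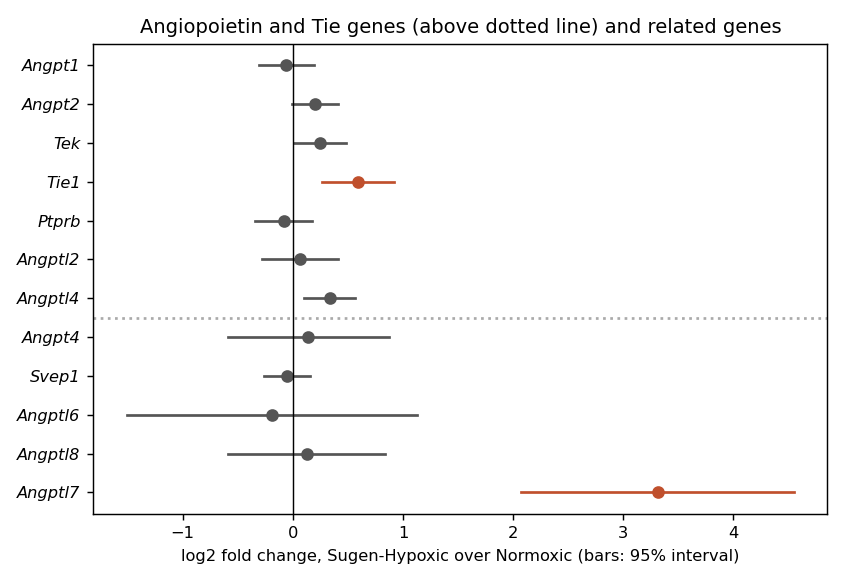
Log2 fold change (Sugen-Hypoxic over Normoxic) with its 95% interval for the 7 genes tested, above the dotted line, and for 5 related genes below it, with genes past the threshold in red. Tie1 (0.59) and Angptl7 (3.31) stand past the threshold, and the intervals of Angpt1, Angpt2, Ptprb and Angptl2 include 0.

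Among the angiopoietin-like genes, Angptl4 (ENSMUSG00000002289, chromosome 17, 33773750 to 33781830, minus strand) was at 38.9 and 45.2 CPM in Normoxic and 50.4 and 55.5 CPM in Sugen-Hypoxic libraries. Both treated values were the higher ones, and the mixed Normoxic pool lay between the all-female pool and the all-male treated pools. The log2 fold change of 0.33 ± 0.09 (95% interval 0.10 to 0.57) missed the threshold (adjusted p = 0.079). With the male share as a covariate it was 0.12 (adjusted p = 0.847). Angptl4 passed with DESeq2 (0.34, adjusted p = 0.0259) and without an expression filter (adjusted p = 0.0164), settings that called more of all genes. It did not pass with limma-voom (0.34, adjusted p = 0.0758) or upper-quartile factors (0.28, adjusted p = 0.117). Nor did it when scaled by library size alone (0.26, adjusted p = 0.148). The size was 0.40 with Sugen-Hypoxic replicate 1 left out and 0.27 with replicate 2 left out. Leaving out a Normoxic pool gave 0.24 (replicate 1) and 0.44 (replicate 2). Such fits hold 1 library in a group, so a pass in them is no sign of stability.

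Angptl2 (ENSMUSG00000004105, chromosome 2, 33216069 to 33247717, plus strand), a secreted protein tied to tissue inflammation, was at 106 and 98.7 CPM in Normoxic and 123 and 91.8 CPM in Sugen-Hypoxic libraries. The treated pools were the highest and the lowest of the 4. The log2 fold change was 0.07 ± 0.14 (95% interval -0.28 to 0.41, adjusted p = 0.791). It was -0.16 without Sugen-Hypoxic replicate 1 (adjusted p = 0.0886) and 0.27 without replicate 2 (adjusted p = 0.0056), and -0.0039 when scaled by library size alone.

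Angptl1 (ENSMUSG00000033544, chromosome 1, 156838562 to 156861078, plus strand) had 10 and 2 reads in the Normoxic and 2 and 0 reads in the Sugen-Hypoxic libraries. The exact Poisson 95% interval of the largest count ran from 4.8 to 18.4 reads. For the count of 0 in the last library the same interval ran from 0 to 3.69 reads. Reads on the opposite strand numbered 12, 10, 6 and 4 in the same order, above the gene's own reads in each library, and no fold is given.

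Angpt2, Angptl1 and Angptl2 each lie inside a larger gene of the opposite strand with no shared exon bases, namely in Mcph1, Ralgps2 and Ralgps1. Ralgps2, a guanine nucleotide exchange factor for Ral, fell from 37.3 and 41.3 to 27.9 and 25.6 CPM, a log2 change of -0.55 ± 0.08 (adjusted p = 0.0181), a call lost without either Normoxic pool (adjusted p = 0.109 and 0.148). Ralgps1 was at 12.5 and 13.3 against 11.7 and 11.0 CPM (adjusted p = 0.273), and Mcph1, a gene of chromosome condensation, at 5.65 and 7.04 against 6.28 and 7.59 CPM (adjusted p = 0.667). Because the counts are kept by strand, reads of the host introns fall in the other column. The opposite-strand column held 0.911 to 1.58% of both strands' reads for Angpt2 and 0.521 to 1.46% for Angptl2. The antisense gene Gm17473 shares 737 exon bases with the 5′ end of Angpt1 and stood at 1.43 and 1.5 CPM in Normoxic and 0.758 and 0.776 CPM in Sugen-Hypoxic libraries (adjusted p = 0.0835). Gm37802 on the strand opposite to Angptl1 was at 0 to 0.300 CPM, and the snoRNA gene Gm26495 inside Ptprb had no reads. Gm47625, which also lies inside Ptprb, was not analysed here.

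Per exon length the receptors and the phosphatase stood well above the ligands. In Normoxic libraries the order was Ptprb at 112 ± 6.32, Tek at 83.1 ± 0.502, Tie1 at 64.1 ± 1.71, Angpt1 at 21.4 ± 0.338, Angptl2 at 16.3 ± 0.860, Angptl4 at 11.9 ± 1.25, Angpt2 at 8.97 ± 0.772 and Angptl1 at 0.0316 ± 0.0281 RPKM (SD, n = 2). No neighbours in that order overlapped between the pools. In Sugen-Hypoxic libraries Ptprb (105 ± 10.6 RPKM), Tek (98.3 ± 11.5) and Tie1 (96.8 ± 18.0) overlapped, as did Angpt1 with Angptl2 and Angptl2 with Angptl4.

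Ratios of RPKM within a library do not depend on library scaling. Tie1 over Tek was 0.754 and 0.789 in the Normoxic and 1.03 and 0.932 in the Sugen-Hypoxic libraries, so the treated ratios were the higher ones. Ptprb over Tek went the other way, 1.39 and 1.30 against 1.06 and 1.09. Angpt1 over Angpt2 was 2.27 and 2.51 against 2.13 and 1.85, and Angpt1 over Tek 0.259 and 0.255 against 0.212 and 0.204. With 2 libraries a group these ratios were given no test, and how often ratios of other gene pairs separate the groups was not counted.

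**Figure D3:**
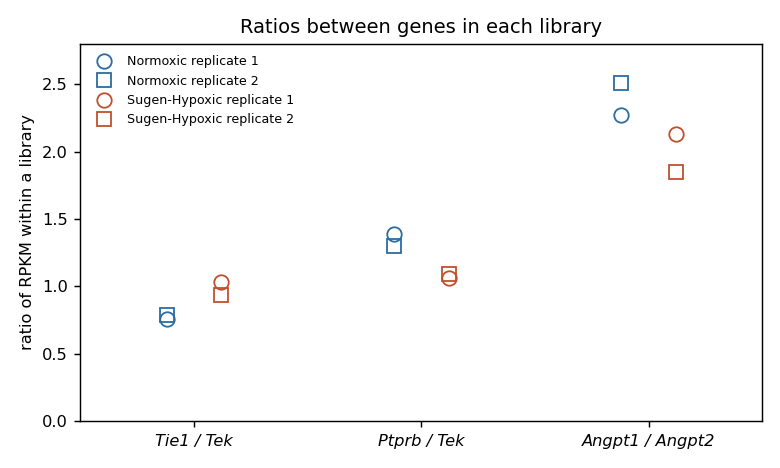
Ratio of RPKM within each library for 3 pairs of genes, with circles for replicate 1 and squares for replicate 2. Tie1 over Tek is higher in both Sugen-Hypoxic libraries (1.03 and 0.932), and Ptprb over Tek and Angpt1 over Angpt2 are lower in both.

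Tek, Tie1 and Ptprb belong to endothelial cells, and in RNA of a whole lung fewer cells of a type and less RNA per cell cannot be told apart. Of 15 pan-endothelial markers, 4 rose, 2 fell and 9 did not pass, with a median log2 fold change of 0.17. Their summed level was 4886 to 4969 CPM in Normoxic and 5038 to 5999 CPM in Sugen-Hypoxic libraries, and none was at 0. Those that rose were the sialomucin Emcn (2.05-fold), the junctional cadherin Cdh5 (1.51-fold), the adhesion molecule Icam2 (1.5-fold) and the guidance receptor Robo4 (1.30-fold), while the BMP co-receptor Eng (-0.73) and the receptor-activity protein Ramp2 (-0.72) fell on the log2 scale. Cdh5, which physically partners PTPRB at junctions, was the highest of the list, at 1141 and 1162 against 1871 and 1599 CPM. The geometric mean of the 15 was 204 and 197 CPM in Normoxic and 241 and 204 CPM in Sugen-Hypoxic libraries, so the treated pool with the highest Tek and Tie1 was also the one with the highest endothelial level. Relative to that mean, Tie1 stood at 1.52 and 1.63 in Normoxic and 2.24 and 2.03 in Sugen-Hypoxic libraries, Tek at 1.93 and 1.98 against 2.08 and 2.09, and Ptprb at 7.60 and 7.27 against 6.26 and 6.42. Treated values of Tie1 were thus above the Normoxic ones on this scale also, but the mean holds markers that rose and markers that fell. The 1.51-fold rise of Tie1 was near those of Cdh5 and Icam2, below that of Emcn and above that of Robo4. Without Normoxic replicate 1 or 2, 0 of the 15 markers passed. Upper-quartile factors gave 2 higher and 2 lower, and DESeq2 gave 6 and 2. The markers' median was 0.13 with Sugen-Hypoxic replicate 1 left out and 0.28 with replicate 2 left out. The part of the markers' change in that of Tie1 was not tested.

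Profiles over the 4 libraries were compared by the distance between log2 CPM values centred per gene, among 12114 other genes whose mean reached 5 CPM. The genes nearest to Tie1 were Nkd2, a Wnt pathway regulator (distance 0.02), and the endothelial marker Icam2 (0.03). Nearest to Tek were Amotl1 (0.01) and Inpp5a (0.03), to Angpt2 Mettl24 (0.01) and Slc1a4 (0.02), to Angpt1 Nudt13 (0.01) and Dab2ip (0.02), and to Ptprb Acad8 (0.01) and Cbfa2t3 (0.02). Those of Angptl2 were Skida1 and Gstm1 (0.03 and 0.04) and those of Angptl4 Smim3 and Dap (0.04 and 0.05). With 4 libraries such nearness is a description only. Among the 7 genes themselves the closest pairs were Angpt1 with Ptprb (0.09), Angpt2 with Tek (0.16) and Angpt1 with Angptl2 (0.16), while Tek and Tie1 were 0.36 apart and Tie1 and Ptprb farthest apart (0.69).

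The largest change in the family lay outside the 8 genes. Of 5 other family genes tested, 1 rose and 0 fell (median 0.12), with none lower at an unadjusted p under 0.05 or by DESeq2, and limma-voom called 0 of the 5. Angptl7 (ENSMUSG00000028989, chromosome 4, 148495183 to 148500460, minus strand), a secreted protein best known from the eye, went from 0.980 and 0.967 CPM to 5.27 and 14.1 CPM. Both treated pools were above both Normoxic pools, and the second held the higher level. The rise was 9.94-fold, a log2 fold change of 3.31 ± 0.50 (adjusted p = 0.0178). Without Sugen-Hypoxic replicate 2 it was 2.44, and the call was lost without Normoxic replicate 1 (3.33, adjusted p = 0.148), without Normoxic replicate 2 (3.30, adjusted p = 0.136) and with the male share as a covariate (3.33, adjusted p = 0.485). Angpt4, the mouse counterpart of a further TEK ligand, was at 0.980 to 1.33 CPM (adjusted p = 0.79), Angptl6 at 0.512 to 1.46 CPM (adjusted p = 0.844) and Angptl8, a secreted protein of liver and fat, at 1.28 to 1.85 CPM (adjusted p = 0.811). Svep1, a large matrix protein known to bind TIE1, was at 147 and 137 against 146 and 127 CPM, a log2 fold change of -0.06 ± 0.08 (adjusted p = 0.707).

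Of 17 genes that carry TEK signals inside the cell, 1 rose, 1 fell and 15 did not pass, with a median of 0.09. At an unadjusted p under 0.05 the numbers were 6 higher and 3 lower, and with DESeq2 they were 2 and 1. The adaptor Nck1 rose from 51.8 ± 0.222 to 69.7 ± 4.40 CPM (0.43, adjusted p = 0.0186) and the adaptor Grb14 fell from 51.1 ± 2.43 to 41.3 ± 1.24 CPM (-0.31, adjusted p = 0.0404). The docking protein Dok2 (0.10), the kinase Akt1 (0.21, adjusted p = 0.0745) and Foxo1 (-0.15, adjusted p = 0.277), the transcription factor that AKT holds inactive and that induces Angpt2, did not pass. Of 16 FOXO target genes 0 rose and 1 fell, the apoptosis inducer Bcl2l11 (-0.37, adjusted p = 0.0244), with a median of -0.02. At an unadjusted p under 0.05 the numbers were 2 higher and 3 lower, with DESeq2 1 and 2, and with limma-voom 0 and 1. The median of the FOXO targets was -0.07 without Sugen-Hypoxic replicate 1 and -0.04 without replicate 2. That of the signal transduction genes was 0.05 and 0.09.

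Of 7 adhesion partners, integrins and other surface proteins reported to bind angiopoietins, angiopoietin-like proteins or PTPRB, 3 rose and 0 fell (median 0.13), the same counts as at an unadjusted p under 0.05, by DESeq2 and by limma-voom. Itga5, the fibronectin receptor subunit, went from 73.2 and 72.3 to 109 and 115 CPM (0.63 ± 0.06, adjusted p = 0.00595), and its partner Itgb1 rose by 0.46 (adjusted p = 0.0257). The third was Cdh5. Integrin subunits are made by many lung cells besides endothelium, and the source of the change was not tested.

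**Figure D4:**
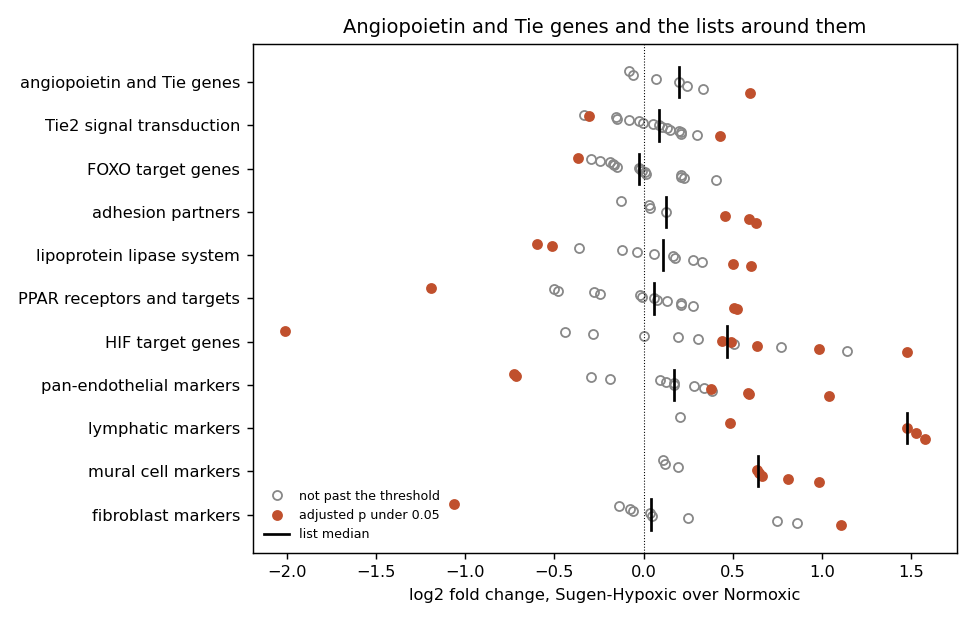
Log2 fold change of each tested gene, by list, with filled points past the threshold and a black line at each list's median. The angiopoietin and Tie genes hold 1 filled point (Tie1), and of the lists drawn the lymphatic one has the highest median (1.47).

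Angptl4 acts on lipoprotein lipase, and 2 of the 12 tested genes of that system rose while 2 fell (median 0.11, 13 listed). The target itself, Lpl, was at 349 and 275 against 313 and 469 CPM and did not pass (adjusted p = 0.356). Gpihbp1, which holds the lipase on capillary endothelium, fell from 109 ± 6.15 to 76.5 ± 5.60 CPM (-0.51, adjusted p = 0.0173), as did the fatty acid receptor Cd36 (-0.60, adjusted p = 0.0156). The lipoprotein receptor Vldlr (0.60, adjusted p = 0.0453) and the protease Pcsk5, a proprotein convertase (0.50, adjusted p = 0.0234), rose. Without Sugen-Hypoxic replicate 1 the list's median was 0.16, and without replicate 2 it was 0.06.

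Of 15 PPAR receptors and targets, through which fatty acids induce Angptl4, 2 rose and 1 fell (median 0.06). The receptor Ppard rose by 0.52 (adjusted p = 0.0139), and so did the lipid droplet gene Plin2, by 0.51 (adjusted p = 0.0292). Of 14 HIF target genes 5 rose and 1 fell, with a median of 0.46. The oxygen sensor Egln3 rose by 1.47 and the stress gene Ndrg1 by 0.98, followed by the mitophagy gene Bnip3 at 0.63, and the lipid droplet gene Hilpda fell from 51.8 and 50.2 to 14.9 and 10.4 CPM. Angptl4, itself a known HIF and PPAR target, stood at 0.33, below the HIF list's median. Without Sugen-Hypoxic replicate 1 the median was 0.282 for HIF targets and 0.065 for the PPAR list. Without replicate 2 the medians were 0.516 and 0.032. Without Normoxic replicate 1, 0 genes of the signalling, FOXO, adhesion, lipase, PPAR and HIF lists passed, and without Normoxic replicate 2 the count was 1, a HIF target that was lower. With the male share as a covariate 0 genes of these lists and of the cell marker lists passed.

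Markers of cells that make or carry these genes were followed beside them. Lymphatic endothelium, which carries Tie receptors and Angpt2, had 4 of 5 markers higher and 0 lower, with a median of 1.47, the same counts as at an unadjusted p under 0.05 and by DESeq2 and limma-voom. The transcription factor Prox1 rose from 5.78 and 5.20 to 16.1 and 16.7 CPM (1.58 ± 0.11, adjusted p = 0.00416), and Reln and Mmrn1 rose 2.87-fold and 2.78-fold, while Lyve1, the most abundant marker after treatment as before, was at 245 and 208 against 283 and 239 CPM (adjusted p = 0.294). The summed level was 348 to 404 CPM in Normoxic and 528 to 591 CPM in Sugen-Hypoxic libraries, with no marker at 0. With Normoxic replicate 1 or 2 left out, 2 and 3 of the lymphatic markers passed. Their part in the rise of Tie1 was not tested.

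Mural cells, a source of Angpt1, had 5 of 8 markers higher and 0 lower by edgeR, DESeq2, limma-voom and at an unadjusted p under 0.05 (median 0.64), among them Higd1b (1.97-fold), Tagln (1.75-fold), Notch3 (1.58-fold) and Acta2 (1.56-fold), where Angpt1 itself did not pass. Their summed level was 1217 to 1312 against 1715 to 1783 CPM. Of 10 fibroblast markers 1 rose (Col3a1, 2.15-fold) and 1 fell (Inmt, 2.09-fold), with a median of 0.04 and summed levels of 4541 to 4764 against 4892 to 5809 CPM. Without Normoxic replicate 1 or 2, 0 markers of either list passed. Without Sugen-Hypoxic replicate 1 or 2, the fibroblast median was 0.164 and 0.149.

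Platelets are another store of ANGPT1, and 0 of 6 platelet and megakaryocyte markers passed by edgeR, DESeq2 or limma-voom (1 at an unadjusted p under 0.05). Their summed level was 23.6 and 50.9 CPM in the Normoxic pools and 30.4 to 40.1 CPM in the treated ones, with Itga2b the highest on average (9.26 to 17.0 CPM). For fat cells 0 of 5 markers passed by any of the 3 tools or at an unadjusted p under 0.05, with Cidec the highest at 12.2 to 14.6 CPM and Lep at 0 in Sugen-Hypoxic replicate 1. Of 4 mesothelial markers 1 fell, Lrrn4 (-0.36), and Msln stood at 82.6 to 104 CPM. Of 6 genes listed for alveolar macrophages, Chil3 rose (671 and 583 against 1597 and 4399 CPM) and Car4 fell (-0.87), the latter also a known gene of lung capillaries. Of the 9 lung identity genes 0 passed by edgeR, 3 were lower by DESeq2 and 1 by limma-voom, and 2 were lower at an unadjusted p under 0.05. The median of the lung genes was -0.23 without Sugen-Hypoxic replicate 1 and -0.098 without replicate 2. Of the 9 kidney markers 3 were tested and 0 passed by any of these tools (2 lower at an unadjusted p under 0.05), and their summed level stayed at or below 0.995 CPM. Medians without Sugen-Hypoxic replicate 1 were -0.496 for platelets, 0.145 for fat, -0.103 for mesothelium, 0.553 for macrophages and -1.784 for kidney. Without replicate 2 they were -0.345, -1.701, -0.204, 0.157 and -1.322 in the same order. Without either Normoxic library 0 genes of these lists passed.

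**Figure D5:**
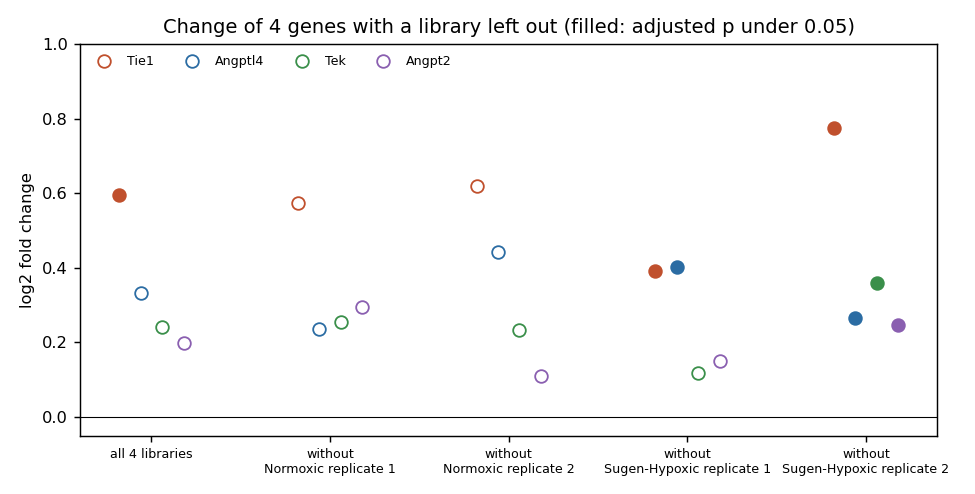
Log2 fold change of Tie1, Angptl4, Tek and Angpt2 with all 4 libraries and with each library left out, filled where the adjusted p was under 0.05. Tie1 stays between 0.39 and 0.78 throughout, and no point is filled where a Normoxic library was left out.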

How the data were processed

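What the authors deposited is a table of raw counts for each library, with 1 unstranded and 2 stranded columns. The submitters' processing notes name STAR 2.5.1b, HTSeq and the build GRCm38.p4, and the columns follow STAR's own gene counting. Annotation and strandedness of the kit: not given in the sources used here. The column for reads antisense to read 1 held 20.9 to 24.9 times the reads of the other strand and was used. Rows that name no gene (unmapped, multimapping, without feature, ambiguous) held 21 to 22.1% of reads and stayed out of library sizes. Symbols, exon lengths and GRCm38 coordinates came from GENCODE mouse release 21, which matched 47310 of 47729 identifiers. Multimapping reads are not counted, so near-identical genes are undercounted.

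Genes passing edgeR's filterByExpr were tested by the quasi-likelihood test (edgeR 4.0.16, R 4.3.3) with TMM factors and group as the only term, two-sided, adjusted by Benjamini-Hochberg over 18783 genes. Standard errors derive from the F statistic, and 95% intervals from the t distribution with the test's degrees of freedom. Counts within each pair of replicates differed beyond sampling noise. On 5 simulated draws with 18783 genes, 200 of them changed, 44.8% of 1.5-fold, 73.4% of 2-fold and 94.5% of 4-fold changes were recovered, and 15.3% of calls were false. The comparison itself called 2163 genes, and the draws held no sex difference, so these rates may not carry over to it. Alternatives were RLE and upper-quartile factors, library size only, other filters, DESeq2 1.42.0, limma-voom (limma 3.58.1), unstranded counts, the male share as a covariate and each library left out.

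The 8 genes and the lists were chosen with earlier results of these data known. Beyond the 8, genes were named by rule: up to 4 per list with the largest change past the threshold, all of the other family and host genes, overlapping genes, the highest gene of a marker list, and the 2 genes nearest in profile. Genes named outside it, chosen after their values were seen, were Lpl, Dok2, Akt1, Foxo1, Robo4, Umod and Lep. Some genes that the rule names are not reported here. Promoter windows are RefSeq's.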

Additional observations from a re-analysis of the deposited data

How the results depend on the processing

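The number of genes past the threshold, 2163, was 3657 without an expression filter, 3254 with DESeq2 and 11 with the male share of each pool as a covariate, and ran from 25 to 5101 with a library left out. It was 25 without Normoxic replicate 1, 113 without Normoxic replicate 2, 5101 without Sugen-Hypoxic replicate 1 and 4777 without Sugen-Hypoxic replicate 2. Of the 8 genes, the 1 that was higher became 0 with upper-quartile factors and 0 with the male share as a covariate, 2 without an expression filter and 2 with DESeq2, Angptl4 being the second in both. With a library left out the number ran from 0 to 5, and that of lower genes from 0 to 1. The upper end for higher genes came from the fit without Sugen-Hypoxic replicate 2. That fit holds 1 treated library and called far more of all genes than the main fit, as given above. Its number is therefore no sign of more changed genes among the 8. Tie1 was higher in all 14 fits, by 0.39 to 0.78. Upper-quartile factors and library size alone moved the split of all calls from 1035 higher and 1128 lower to 799 and 1424, and to 765 and 1584. No paired analysis was possible because the labels give no replicate numbers: those used here follow the order of deposition and only name the libraries. Counts of list genes by DESeq2 were larger for HIF targets, at 8 higher and 2 lower. Of the genes described, depth limits Angptl1, at 0 to 10 reads per library.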

Other observations

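On the opposite strand of Angptl6 the libraries held more reads than on the gene's own strand, 325 and 346 reads in the Normoxic and 263 and 333 reads in the Sugen-Hypoxic libraries against 88, 57, 81 and 33 on its own strand. The opposite-strand level was 4.75 to 5.77 CPM and overlapped between the groups, and the unstranded column held 50, 37, 52 and 18 reads. Angpt1 showed the reverse split of strands, with 51, 73, 22 and 24 reads on the opposite strand in the order of the libraries, at most 1.09% of both strands' reads. As for Angptl6, its unstranded column held fewer reads than its own strand in each library, 7068 against 7690 in Normoxic replicate 1.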
